A study of Mus musculus with 16 samples.

Results

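TRBV20 receptors are T cell receptors (TCRs) whose beta chain carries the variable segment TRBV20, the segment also called Tcrb-V15, on mouse chromosome 6 (GRCm38.p6 annotation, 41188273 to 41188977). Members were chosen by the V segment that the authors' files name on the beta chain: a cell was counted when exactly 1 TRB chain was listed for it, with TRBV20 as V segment, beside 1 or 2 TRA chains. By this rule 1887 of 38108 paired cells (4.95%) carried TRBV20, in 1439 of 30489 clonotypes (4.72%). Cells of a library were joined into a clonotype when their beta chain and their main alpha chain, the TRA with most unique molecular identifiers (UMIs), had identical segments and identical nucleotides in CDR3, the junction loop of the chain.

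The libraries came from antigen-experienced (CD44high) CD4+ T cells sorted from mouse spleen 18 days after an intravenous graft of Vk12653 (Vk*Myc) multiple myeloma cells, and read with 10x 5′ single-cell libraries. The study compared Eomes knockout (KO) with wild-type (WT) mice, and an agonistic antibody to the costimulatory receptor 4-1BB (CD137) with control IgG. There were 8 TCR libraries, 1 from each of 2 experiments for KO anti-4-1BB, KO IgG, WT anti-4-1BB and WT IgG. All mice, controls included, had received an NK1.1-depleting antibody (50 µg, days -2 and 5) and the myeloma graft (day 0), and then anti-4-1BB or IgG (20 µg, days 10, 13 and 16). KO mice were Eomesfl/fl-ERT2CD4Cre in experiment 2 and Eomesfl/fl-CD4Cre in experiment 1, where Cre is driven in cells that express or expressed CD4. WT mice were Eomes-IRES-GFP reporters in both experiments. Tamoxifen was given to all 4 groups of experiment 2, so experiment, tamoxifen and type of knockout cannot be told apart. Whether a library pools several mice is not given in the sources used here, so the spread between libraries may be partly technical.

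A TCR beta chain is assembled in the thymus from 1 V, 1 D and 1 J segment, with bases trimmed from the segment ends and others added between them. CDR3 beta spans these junctions and makes much of the contact with the peptide held by the MHC molecule. CDR3 forms found in many individuals are called public, and those found in 1 are called private. The alpha chain is rearranged later than the beta chain, after the cell carrying a beta chain has divided, so descendants of 1 beta rearrangement can carry different alpha chains.

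The beta chains are shown first because the results turn on how they were joined. A form here is TRBV20 with 1 TRBJ segment and 1 CDR3 amino acid sequence, and its nucleotide versions are the different CDR3 sequences that encode it. The sequences run 5′ to 3′ over the CDR3, and capitals mark the bases that match neither the TRBV20 end nor the TRBJ start. The first form, form 1 (TRBJ2-7, 14 residues), was found in all 8 libraries, with 27 clonotypes, 30 cells and 10 nucleotide versions. Its 3 commonest versions and 4 of the rarer ones were as follows.
Form 1, 14 clonotypes in 8 libraries: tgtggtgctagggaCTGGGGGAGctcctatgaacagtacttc
Form 1, 4 clonotypes in 4 libraries: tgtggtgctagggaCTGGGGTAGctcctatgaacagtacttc
Form 1, 2 clonotypes in 2 libraries: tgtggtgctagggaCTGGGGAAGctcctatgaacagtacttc
Form 1, 1 clonotype: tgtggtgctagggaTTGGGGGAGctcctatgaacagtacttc
Form 1, 1 clonotype: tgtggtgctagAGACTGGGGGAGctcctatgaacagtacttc
Form 1, 1 clonotype: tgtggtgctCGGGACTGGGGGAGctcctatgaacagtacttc
Form 1, 1 clonotype: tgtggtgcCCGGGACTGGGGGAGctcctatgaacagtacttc

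The commonest version was present in every library, in 14 clonotypes with 11 TRAV and 11 TRAJ segments. Within a library, clonotypes with 1 beta sequence differ in alpha by definition, so their number is no measure of alpha diversity. The alpha CDR3 joined to this 1 beta sequence is printed here for 1 clonotype of each library.
KO anti-4-1BB, experiment 2, TRAV6-7-DV9 and TRAJ56: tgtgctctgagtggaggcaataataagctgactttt
KO IgG, experiment 2, TRAV6N-7 and TRAJ31: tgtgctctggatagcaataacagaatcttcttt
WT anti-4-1BB, experiment 2, TRAV13-1 and TRAJ50: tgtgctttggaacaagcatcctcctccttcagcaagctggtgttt
WT IgG, experiment 2, TRAV14N-3 and TRAJ45: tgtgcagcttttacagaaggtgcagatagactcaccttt
KO anti-4-1BB, experiment 1, TRAV4N-4 and TRAJ12: tgtgctgctgaaggctataaagtggtcttt
KO IgG, experiment 1, TRAV13-1 and TRAJ39: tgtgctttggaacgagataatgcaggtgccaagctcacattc
WT anti-4-1BB, experiment 1, TRAV13N-4 and TRAJ42: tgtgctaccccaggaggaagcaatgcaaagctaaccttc
WT IgG, experiment 1, TRAV13-1 and TRAJ28: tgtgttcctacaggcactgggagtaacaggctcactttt

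The 8 libraries held 2656 to 8871 paired cells, with 116 to 380 TRBV20 cells and 99 to 322 TRBV20 clonotypes each. Libraries had 80551 to 445027 TCR UMIs, and the median UMI number of TRBV20 cells in a library was 9 to 16 on the beta chain and 6 to 10 on the alpha chain. Confidence intervals are exact binomial (Clopper-Pearson, 95%) and cover counting error only. They treat cells as independent draws, which cells of 1 clonotype are not, so they are too narrow where clones are large. Cell barcodes were shared between libraries for 866 paired barcodes, and 0 shared both barcode and CDR3 nucleotides. For 3 of the barcodes the cell carried TRBV20 in more than 1 library. TRBV20 cells whose barcode recurred only in cells with another TRBV are not counted in these 3. Of the defining receptors of other T cell types, 1 TRBV20 cell had the invariant natural killer T (NKT) alpha chain and 0 had the alpha chain of mucosal-associated invariant T cells.

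TRBV20 was a mid-ranking segment, number 10 of 22 TRBV labels by cells. It took 6.30% of paired cells in KO anti-4-1BB (interval 5.63% to 7.01%), 6.18% in KO IgG (5.58% to 6.82%), 3.74% in WT anti-4-1BB (3.20% to 4.34%) and 5.97% in WT IgG (5.29% to 6.70%) of experiment 2. In experiment 1 it took 4.37% in KO anti-4-1BB (3.62% to 5.22%), 4.40% in KO IgG (3.66% to 5.24%), 4.28% in WT anti-4-1BB (3.87% to 4.73%) and 3.94% in WT IgG (3.37% to 4.59%). The 4 libraries of experiment 1 sat close together, and 3 of experiment 2 were above them. In experiment 2 the WT library with anti-4-1BB was below all of experiment 1. A clonotype of 71 cells made up 1.45% of the paired cells of KO anti-4-1BB in experiment 2. Another of 31 cells made up 0.695% of those of WT IgG in experiment 2.

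**Figure D1:**
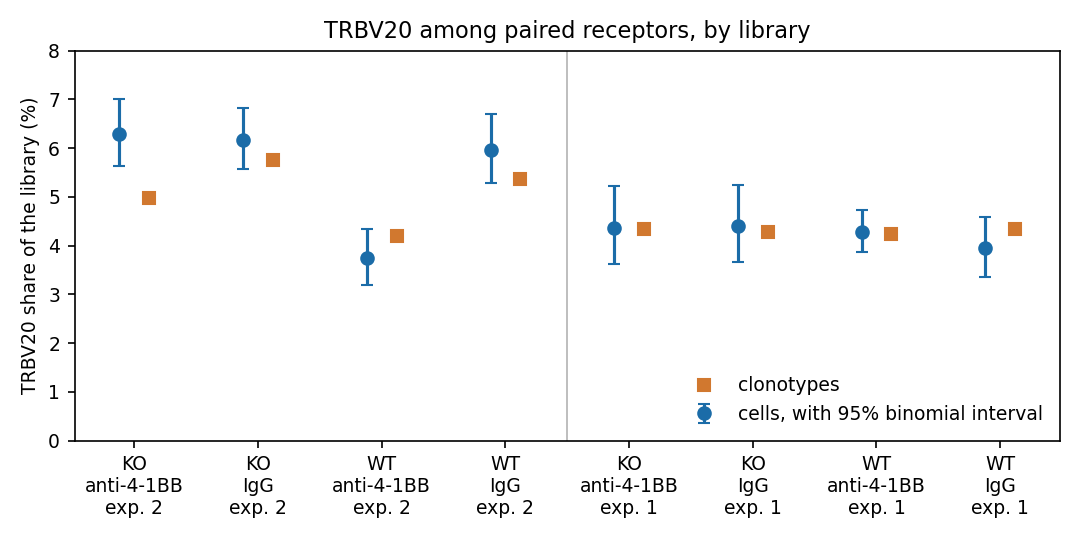
TRBV20 share (%) of paired cells (circles, with exact 95% binomial intervals) and of clonotypes (squares) in each of the 8 libraries, experiment 2 to the left. Shares of clonotypes span 4.20% to 5.76%, and shares of cells 3.74% to 6.30%.

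Counted once per clonotype, the share in experiment 2 was 4.97% in KO anti-4-1BB, 5.76% in KO IgG, 4.20% in WT anti-4-1BB and 5.36% in WT IgG. In experiment 1 it was 4.35% in KO anti-4-1BB, 4.29% in KO IgG, 4.25% in WT anti-4-1BB and 4.35% in WT IgG, a narrower range than in experiment 2. With anti-4-1BB the share differed from that with IgG by -0.16 ± 0.15 on the log2 scale (SE; edgeR quasi-likelihood test, adjusted p = 0.948 over 153 segments, of which 0.654% passed). In experiment 2 that difference was -0.28 ± 0.15 and in experiment 1 it was -0.01 ± 0.15, and the difference between these 2 values was -0.26 ± 0.21 (edgeR, adjusted p = 0.536, 0.654% of segments passed). KO differed from WT by 0.10 ± 0.15 (edgeR, adjusted p = 0.993, 0.654% passed). The treatment difference in KO minus that in WT was 0.09 ± 0.30 (edgeR, adjusted p = 0.970, 0% passed). Experiment 2 differed from experiment 1 by 0.23 ± 0.13 (edgeR, adjusted p = 0.521, 0.654% passed). TRBV20 use thus did not pass the threshold in any of the 5 contrasts, with 2 libraries for each of the 4 groups.

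The TRBV segments whose log2 share of clonotypes followed that of TRBV20 most closely over the 8 libraries were TRBV1 (Pearson r 0.71), TRBV5 (0.68) and TRBV17 (0.55). These values describe shares that sum to a whole within each library.

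TRBV20 was joined to all 12 TRBJ segments found in the files. TRBJ segments lie in 2 clusters, each downstream of its own D segment, and TRBJ2 segments can be joined to TRBD1 or TRBD2. The commonest in TRBV20 clonotypes was TRBJ2-7 (19.5%, 280 clonotypes), followed by TRBJ2-5 (14.5%, 209), TRBJ2-1 (11.4%, 164) and TRBJ1-1 (10.0%, 144). TRBJ2-3 took 8.83%, TRBJ2-4 8.27%, TRBJ2-2 6.95%, TRBJ1-2 6.88%, TRBJ1-4 6.32%, TRBJ1-3 4.17% and TRBJ1-5 1.88%. TRBJ1-6 was the rarest, at 1.32% (19 clonotypes), against 2.57% of clonotypes with other TRBV segments. This difference did not pass the threshold (log2 difference -0.98 ± 0.36, SE, edgeR, adjusted p = 0.234).

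TRBJ2-7 took 8.47% to 28.2% of a library's TRBV20 clonotypes. It took 15.3% in KO anti-4-1BB, 22.5% in KO IgG, 8.47% in WT anti-4-1BB and 21.4% in WT IgG of experiment 2, and 19.2% in KO anti-4-1BB, 23.2% in KO IgG, 16.8% in WT anti-4-1BB and 28.2% in WT IgG of experiment 1. In all 4 combinations of experiment and genotype the anti-4-1BB library was the lower. The log2 difference with anti-4-1BB against IgG, for TRBV20-TRBJ2-7 clonotypes among all clonotypes, was -0.81 ± 0.29 (SE; edgeR, unadjusted p = 0.0158, adjusted p = 0.462 over 169 TRBV-TRBJ pairs), which fails the correction. TRBV20 with TRBJ2-5 differed by 0.69 ± 0.26 in experiment 2 against experiment 1 (edgeR, adjusted p = 0.348). Its share of TRBV20 clonotypes was 18.2% in experiment 2 against 12.5% in experiment 1 for KO anti-4-1BB, 12.0% against 13.1% for KO IgG, 24.6% against 14.3% for WT anti-4-1BB and 14.8% against 9.40% for WT IgG. Experiment 2 was the higher in all groups but KO IgG.

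Of the 10 TRBV20-TRBJ pairs with enough clonotypes to test, 0 passed for treatment (0% of all 169 pairs passed), genotype (0%), the treatment difference in KO minus that in WT (0%) or experiment (0%). For how the treatment difference itself differed between experiments (2 minus 1), 0 of 10 passed, with 2.37% of all pairs passing. At an unadjusted p under 0.05 in edgeR there was 1 pair for treatment, 1 for experiment and 0 for the other 3 contrasts. DESeq2 called 0 pairs in each of the 5 contrasts, with 0 under an unadjusted 0.05.

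The 1439 TRBV20 clonotypes made up 1214 CDR3 beta forms, and most of these were private. In 1 library only there were 1158 forms (1235 clonotypes, 85.8%), and 45 forms (113 clonotypes, 7.85%) were in 2 libraries. The 11 forms in 3 or more libraries, called shared here, held 91 clonotypes (6.32%) and 103 cells. Of these, 4 were in 3 libraries, 2 in 4, 3 in 5, 1 in 6 and 1, form 1, in 8. Just inside the limit of 3 libraries were 4 forms with 23 clonotypes, and just outside it the 45 forms with 113. Form 1 was the 1 form of any TRBV found in all 8 libraries.

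**Figure D2:**
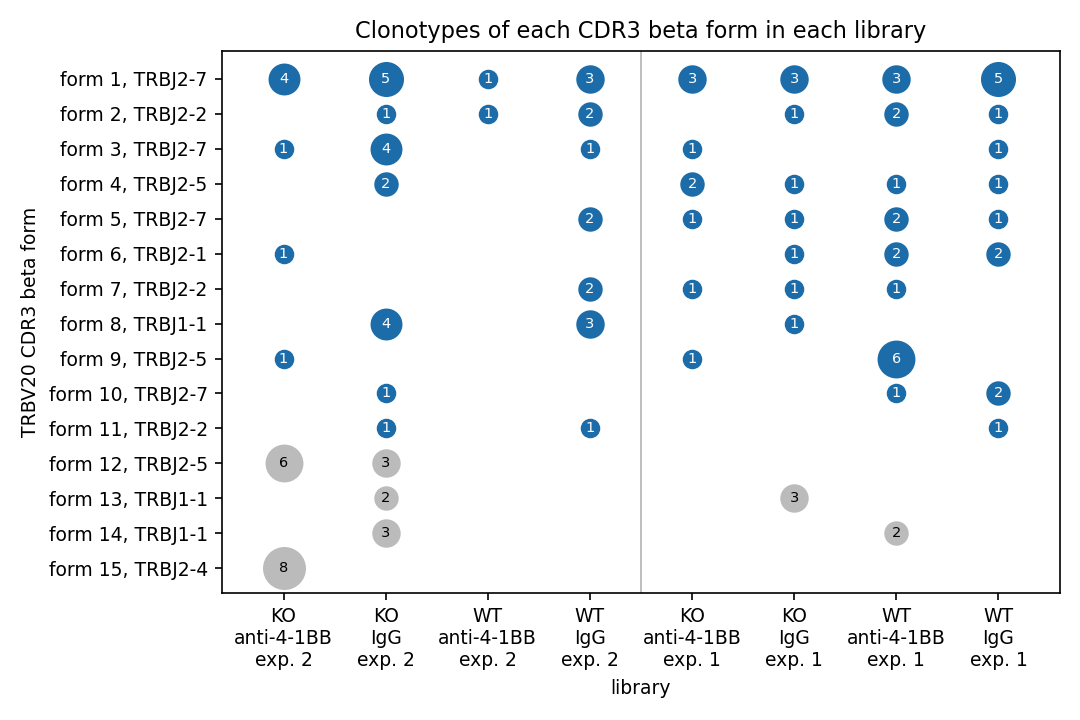
Number of clonotypes of the 11 shared forms (blue, forms 1 to 11) and of 4 other forms with 5 or more clonotypes (grey, forms 12 to 15) in each library, experiment 2 to the left; circle area grows with the number printed inside. Form 1 has 1 to 5 clonotypes in every library, and form 15 has its 8 clonotypes in 1 library.

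Form 1 clonotypes numbered 4 in KO anti-4-1BB, 5 in KO IgG, 1 in WT anti-4-1BB and 3 in WT IgG of experiment 2, and 3 in KO anti-4-1BB, 3 in KO IgG, 3 in WT anti-4-1BB and 5 in WT IgG of experiment 1. That is 0.847% to 3.36% of the TRBV20 clonotypes of a library. Its largest clonotype had 2 cells. Its 27 clonotypes used 17 TRAJ segments. TRAJ31 was the commonest with 6 clonotypes, and TRAV6-family segments were used by 10 clonotypes and TRAV13-family segments by 8. In KO IgG of experiment 2 the same alpha CDR3 nucleotides were listed under TRAV6D-6 and under TRAV6N-7, which may count 1 clonotype as 2.

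The other shared forms had 3 to 8 clonotypes each, and all 11 had at least 2 nucleotide versions. A second version can show only in a form with 2 or more clonotypes. Among such forms, 33 of 45 in 2 libraries (73.3%) and 12 of 66 private ones (18.2%) had more than 1 version. Shared forms also have more clonotypes each, so these counts are a description and were not tested. Forms 2, 7 and 11 use TRBJ2-2, forms 3, 5 and 10 TRBJ2-7, forms 4 and 9 TRBJ2-5, form 6 TRBJ2-1 and form 8 TRBJ1-1. For each of forms 2 to 6 the version with most clonotypes, or 1 of those tied for it, is shown because its layout can be set beside that of form 1.
Form 2, 2 clonotypes in 2 libraries: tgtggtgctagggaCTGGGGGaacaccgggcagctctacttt
Form 3, 2 clonotypes in 2 libraries: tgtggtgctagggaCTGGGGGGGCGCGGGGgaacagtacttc
Form 4, 2 clonotypes in 2 libraries: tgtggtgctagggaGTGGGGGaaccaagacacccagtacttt
Form 5, 4 clonotypes in 3 libraries: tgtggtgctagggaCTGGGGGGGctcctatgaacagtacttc
Form 6, 2 clonotypes in 2 libraries: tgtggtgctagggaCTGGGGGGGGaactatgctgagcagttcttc

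In the first version printed for forms 1, 2, 3, 5 and 6 the TRBV20 end runs straight into a stretch that matches the D segment TRBD2, while form 4 differs from it at the first base. The end of TRBV20 inside CDR3, derived from the files as the run of bases that most chains share, has 14 bases. The commonest 14-base run of chains labelled TRBD2 opens with the same 4 bases that close the TRBV20 end, as the following pair shows, with these 4 bases in the first sequence at its right end and in the second at its left end.
TRBV20 end: tgtggtgctaggga
TRBD2 run: gggactgggggggc

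No other TRBV end with 50 or more chains, derived in the same way, shared more than 1 base with the start of the TRBD2 run. The letters searched in all chains were the 8 bases GACTGGGG of that run, on the coding strand and within CDR3. Among TRBJ2 clonotypes, 21.8% of those with TRBV20 (218 of 999) held this run, against 16.6% of those with other TRBV segments together. By this share TRBV10 ranked first (28.1%) and TRBV20 second, with TRBV12-1 (20.8%) and TRBV31 (20.3%) close to it. In TRBV20 clonotypes 76.6% of the runs were read in the frame that gives Asp, Trp and Gly, against 37.9% in other clonotypes. In TRBJ1 clonotypes the run was found in 0 of 440 with TRBV20 and in 0 of 9002 with other TRBV segments. The run and frame were chosen after the forms had been seen, and the shared forms hold 62 of the 218 TRBV20 clonotypes with the run, so no test is given.

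The Asp-Trp-Gly stretch was more frequent among TRBV20-TRBJ2 clonotypes than among other TRBJ2 clonotypes of the same library in all 8 libraries. It was found in 15.9% of TRBV20 clonotypes in KO anti-4-1BB, 16.0% in KO IgG, 11.4% in WT anti-4-1BB and 21.9% in WT IgG of experiment 2. Other clonotypes there had 5.99% in KO anti-4-1BB, 6.20% in KO IgG, 6.93% in WT anti-4-1BB and 6.67% in WT IgG. In experiment 1 the share of TRBV20 clonotypes was 20.8% in KO anti-4-1BB, 24.3% in KO IgG, 14.7% in WT anti-4-1BB and 21.8% in WT IgG, against 6.09% to 7.02% of other clonotypes. The lowest TRBV20 value lay above the highest value of other clonotypes. TRBV20 ranked first of the 22 TRBV labels by this share (17.7% over all libraries), and TRBV10 second with 13.8%. The shared forms, seen before the stretch was chosen, hold 68 of the 177 TRBV20 clonotypes with it, so this rank rests in part on them. In private forms 87 of 842 TRBJ2 clonotypes had the stretch.

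Of the 167 TRBV20-TRBJ2 clonotypes with the run in that frame, 91 (54.5%) matched the full TRBV20 end followed by the rest of the run, with no base between, in all 8 libraries. This join was present in 46 of the 91 clonotypes of shared forms (50.5%) and in 30 of the 1235 of private forms (2.43%). It reads as below, with the bases after the TRBV20 end in capitals.
TRBV20 end joined to the TRBD2 run: tgtggtgctagggaCTGGGG

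The features of shared and private forms are given as a description, with no test. Clonotypes of shared forms used the TRBJ2 cluster in 91.2%, against 68.2% in private forms, and TRBJ2-7 in 50.5%, against 17.3%. CDR3 beta had 14 residues in 84.6% of shared and 26.1% of private clonotypes. All 14 bases of the TRBV20 end were matched in 73.6% of shared and 23.6% of private clonotypes. The last 4 of them also open the TRBD2 run, so a match does not tell whether V or D supplied these bases. The 8-base run was held by 68.1%, against 10.5%, and Asp-Trp-Gly by 74.7%, against 7.04%. The bases between the V and J matches numbered 9.68 ± 2.84 in shared and 9.31 ± 3.73 in private clonotypes (SD over 91 and 1235 clonotypes), a difference smaller than either spread. Because a recurring form enters these shares once per clonotype, form 1 alone supplies 27 of the 91.

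**Figure D3:**
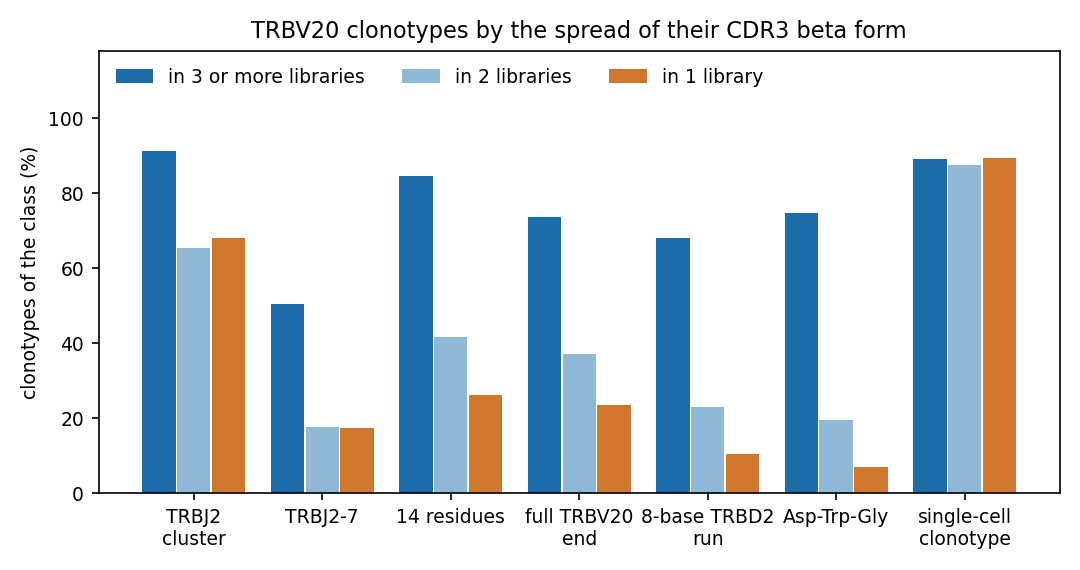
Share (%) of TRBV20 clonotypes with each feature for forms in 3 or more libraries (91 clonotypes), in 2 libraries (113) and in 1 library (1235). The bars differ most for Asp-Trp-Gly (74.7%, 19.5% and 7.04%) and are close for clonotypes of a single cell (89.0%, 87.6% and 89.5%).

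To describe alpha diversity without counting clonotypes, which differ in alpha by definition, cells of the same form and library were compared pair by pair. Of 127 such pairs in shared forms 113 (89.0%) differed in alpha chain, against 1065 of 4720 pairs (22.6%) in private forms and 37.9% in forms of 2 libraries. Cells of such a pair can carry different beta nucleotide versions, and so come from separate beta rearrangements. All 11 shared forms had more than 1 version, while 66 of 1158 private forms had 2 or more clonotypes at all. The classes thus differ in this by their make-up, and the values are a description. With forms defined by nucleotides, 4 forms were shared, and 90.0% of their 10 pairs differed in alpha. Large clones weigh heavily in pairs: 3003 of the 4720 private pairs came from form 15, with its clonotype of 71 cells, and without it the private value was 31.9% (547 of 1717). Clonotypes of 31 and 9 cells with 1 beta sequence, in WT IgG of experiment 2, still weigh in that value. When cells with the same beta chain were joined as soon as they shared any alpha chain, a setting chosen after seeing the data, the private value was 13.5% and the shared value stayed at 89.0%. Clone sizes were close: 89.0% of shared and 89.5% of private clonotypes had a single cell, and 10 of 91 shared and 130 of 1235 private clonotypes had 2 or more. The largest had 3 cells in shared and 71 in private forms. A maximum grows with the number of clonotypes, so these maxima are not compared.

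The diversity of alpha chains was uneven between forms. Pairs of clonotypes of the same shared form used the same TRAJ in 13.0%, against 3.26% of pairs of different TRBV20 forms. Form 8 gave 28 of these 70 same-TRAJ pairs, and without it the share was 8.22% (42 of 511). For form 1 this was 5.98%, with TRAJ31 itself in 8.90% of all TRBV20 clonotypes. Form 5 had 7 clonotypes with 7 TRAJ segments. At the other end, form 8 had 8 clonotypes in 3 libraries, KO IgG and WT IgG of experiment 2 and KO IgG of experiment 1, and all 8 used TRAJ21. Of these, 5 used TRAV10, TRAV10D or TRAV10N, near-identical copies whose labels are uncertain. In WT IgG of experiment 2 form 8 had the same alpha CDR3 nucleotides under TRAV10D and under TRAV10, which may count 1 clonotype as 2. Its beta versions, and the alpha CDR3 of 4 of its clonotypes, are given because both chains recurred.
Form 8 beta, 5 clonotypes in 2 libraries: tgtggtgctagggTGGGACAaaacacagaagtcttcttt
Form 8 beta, 1 clonotype: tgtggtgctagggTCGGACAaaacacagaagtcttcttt
Form 8 beta, 1 clonotype: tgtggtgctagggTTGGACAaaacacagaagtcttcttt
Form 8 beta, 1 clonotype: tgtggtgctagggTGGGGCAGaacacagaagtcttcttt
Form 8 alpha, KO IgG, experiment 2, TRAV10N: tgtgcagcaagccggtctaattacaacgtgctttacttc
Form 8 alpha, WT IgG, experiment 2, TRAV10: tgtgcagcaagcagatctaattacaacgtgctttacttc
Form 8 alpha, WT IgG, experiment 2, TRAV5-1: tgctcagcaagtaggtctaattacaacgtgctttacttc
Form 8 alpha, KO IgG, experiment 1, TRAV10: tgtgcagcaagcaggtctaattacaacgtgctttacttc

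**Figure D4:**
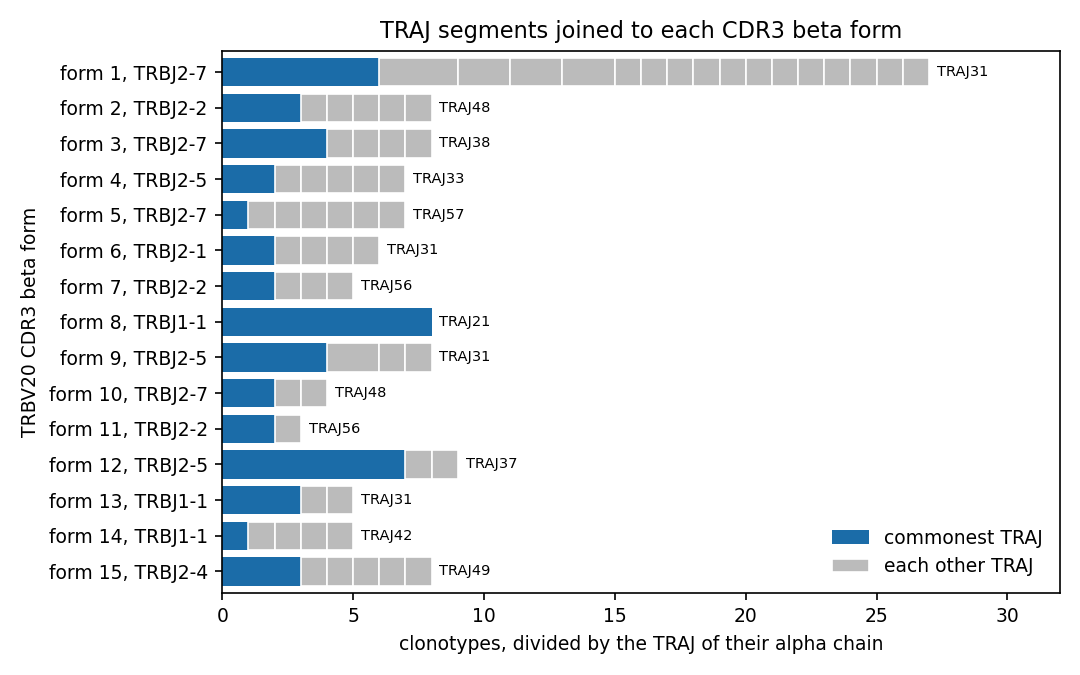
Clonotypes of forms 1 to 15, divided by the TRAJ segment of their alpha chain: the commonest TRAJ, or 1 of those tied (named at the right), in blue and each other TRAJ as a grey block. Form 1 has 17 TRAJ segments over 27 clonotypes, while all 8 clonotypes of form 8 use TRAJ21 and 7 of 9 of form 12 use TRAJ37.

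Form 3 combined a public beta with a recurring alpha. Of its 8 clonotypes, 4 carried TRAV6D-6 with TRAJ38 and the same alpha amino acid sequence, with 4 beta and 3 alpha nucleotide versions. They came from KO anti-4-1BB and KO IgG of experiment 2 and from KO anti-4-1BB of experiment 1. Counting receptors by beta form, TRAJ and alpha CDR3 amino acids, 7 of 1419 TRBV20 receptors (0.493%) were in 2 or more libraries, 2 of them, of forms 3 and 8, in 3 libraries. Among other TRBV segments the share was 0.523% (150 of 28669), a share close to that of TRBV20. By nucleotides of both chains, 1 TRBV20 clonotype was in 2 libraries of experiment 2. It used TRBJ2-1, TRAV6N-7 and TRAJ23 and had 9 cells in KO IgG and 1 cell in WT anti-4-1BB.

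Form 12 (TRBJ2-5) lay just outside the limit, with 9 clonotypes and 23 cells in the 2 KO libraries of experiment 2 and none in the other 6. It had 5 beta versions, and TRAJ37 was used by 7 of the 9 clonotypes. Of its beta versions 3 are shown, with the alpha CDR3 of the 3 largest clonotypes, whose TRAV differ and whose TRAJ37 ends match.
Form 12, 3 clonotypes in 2 libraries: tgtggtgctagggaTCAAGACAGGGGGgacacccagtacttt
Form 12, 3 clonotypes in 1 library: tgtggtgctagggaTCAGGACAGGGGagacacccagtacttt
Form 12, 1 clonotype: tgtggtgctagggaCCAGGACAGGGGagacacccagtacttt
Form 12 alpha, KO anti-4-1BB, experiment 2, TRAV4N-4, 8 cells: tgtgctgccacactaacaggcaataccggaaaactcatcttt
Form 12 alpha, KO anti-4-1BB, experiment 2, TRAV3N-3, 6 cells: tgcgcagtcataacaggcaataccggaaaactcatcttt
Form 12 alpha, KO IgG, experiment 2, TRAV7-4, 3 cells: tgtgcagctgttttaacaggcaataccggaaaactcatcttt

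Form 9 (TRBJ2-5) had 8 clonotypes, 1 in KO anti-4-1BB of experiment 2, and 1 in KO anti-4-1BB and 6 in WT anti-4-1BB of experiment 1. It used 8 TRAV segments, and TRAJ31 in 4 clonotypes. Form 15 (TRBJ2-4) was private, with 8 clonotypes in KO anti-4-1BB of experiment 2 that shared 1 beta sequence. Of its 78 cells, 71 belonged to 1 clonotype with TRAV14-2 and TRAJ49, and the other 7 had 1 cell each. Among these 7, 1 listed the same alpha CDR3 under TRAV14D-3-DV8 and 1 listed a near-identical one with TRAV14-2 and TRAJ49.

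Across the 56 forms in 2 or more libraries, 26 had a nucleotide version in more than 1 library and 30 had no version in common between libraries. The commonest version of form 1 was the most widespread, in 8 libraries. Of the 45 forms in 2 libraries, 23 joined libraries of different experiments and 22 libraries of the same experiment. An alpha chain recurred between libraries, by nucleotides, in 5 of the 56 forms.

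The share of TRBV20 clonotypes in shared forms varied by library. It was 3.98% in KO anti-4-1BB, 6.55% in KO IgG, 1.69% in WT anti-4-1BB and 7.14% in WT IgG of experiment 2, and 8.65% in KO anti-4-1BB, 9.09% in KO IgG, 5.59% in WT anti-4-1BB and 9.40% in WT IgG of experiment 1. The anti-4-1BB library was the lower in all 4 combinations of experiment and genotype. Among cells with no alpha chain, given below, it was the lower only in experiment 2. The median UMI number of the TRBV20 beta chain was 14 in KO anti-4-1BB, 11 in KO IgG, 15 in WT anti-4-1BB and 10 in WT IgG of experiment 2 and 11 in KO anti-4-1BB, 9 in KO IgG, 16 in WT anti-4-1BB and 10 in WT IgG of experiment 1, higher with anti-4-1BB in the same 4 combinations, and its part in the result was not tested. Since a form counts as shared through these same libraries, no test is given. Among TRBV labels, TRBV20 ranked second by this share (6.32%), after TRBV5 (7.16%), and other segments together had 2.63%.

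Cells that carried a TRBV20 beta chain and no alpha chain were not used by the rule and give a separate view of the same forms. Of 1414 such cells, 45 (3.18%) carried a shared form, and 9 of the 11 forms were seen. The share among paired TRBV20 cells, 5.46%, comes from the cells in which the forms were chosen and cannot be compared with it. Form 1 was carried by 5 of the cells with no alpha chain, in 4 libraries, with 5 nucleotide versions. Of these versions 2 were not among the paired cells. Form 1 was not the commonest there: form 3 was carried by 10 cells in 5 libraries, and forms 2 and 5 by 6 cells each in 4 libraries. The remaining shared forms were carried by 0 to 5 cells each. The share in shared forms was 1.49% with anti-4-1BB against 3.85% with IgG in KO and 1.18% against 2.09% in WT of experiment 2. In experiment 1 it was higher with anti-4-1BB, 6.67% against 3.57% in KO and 5.08% against 4.23% in WT. These shares rest on 2 to 10 cells per library.

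TRBV20 clonotypes used TRAV11, the V segment of the invariant NKT alpha chain, less than other clonotypes. It was in 2 of 1439 TRBV20 clonotypes, a mean of 0.116% ± 0.222 of a library's TRBV20 clonotypes, against 0.940% ± 0.750 of other clonotypes (SD, n = 8 libraries each), and was lower in 7 of 8 libraries. The log2 difference was -2.82 ± 0.75 (SE; edgeR, adjusted p = 0.0263), the 1 segment called of 130 TRBJ, TRAV and TRAJ segments tested (0.769%). The call was lost with DESeq2 (adjusted p = 0.264) and with 3 or more UMIs per chain in edgeR (0.0606). In edgeR it was also lost without KO anti-4-1BB of experiment 1 (adjusted p = 0.0505), KO IgG of experiment 1 (0.0530), KO IgG of experiment 2 (0.265) or WT IgG of experiment 2 (0.140).

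The 3 segments with the smallest p in the other direction did not pass. TRAJ31 took 9.36% ± 1.87 of TRBV20 clonotypes, against 6.61% ± 0.440 of other clonotypes (SD, n = 8 libraries each), and was higher in 8 of 8 libraries (log2 difference 0.46 ± 0.17, edgeR, adjusted p = 0.213). TRAV6N-7 took 5.80% ± 1.60, against 3.88% ± 0.519, higher in 7 of 8 libraries (0.61 ± 0.20, adjusted p = 0.121 in edgeR). TRAV7-1, with 12 TRBV20 clonotypes, took 0.932% ± 0.739, against 0.248% ± 0.116 (1.53 ± 0.55, adjusted p = 0.213 in edgeR). TRAV6N-7 has near-identical copies in the locus, so its label is uncertain.

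Most TRBV20 clonotypes were small: 1285 of 1439 (89.3%) had 1 cell and 5 had 10 or more. The largest, the 71 cells of form 15, made up 23.0% of the TRBV20 cells of KO anti-4-1BB in experiment 2. The second had 31 cells in WT IgG of experiment 2 (TRBJ2-7, TRAV3N-3, TRAJ30), and 9 more cells there carried the same beta chain with TRAV9-2 and TRAJ30 as main alpha. The third and the fifth, 16 cells in WT anti-4-1BB and 10 cells in KO IgG of experiment 1, both used TRAV21-DV12 with TRAJ56. This alpha combination was found in 10 TRBV20 clonotypes (0.695%), against 95 others (0.327%). Their beta and alpha chains are shown beside a clonotype from KO IgG of experiment 2 that has the same beta sequence as the 16-cell clonotype.
Beta, WT anti-4-1BB, experiment 1, 16 cells, and KO IgG, experiment 2, 1 cell: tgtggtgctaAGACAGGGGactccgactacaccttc
Beta, KO IgG, experiment 1, 10 cells: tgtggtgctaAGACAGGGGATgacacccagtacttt
Alpha, KO IgG, experiment 2, 1 cell: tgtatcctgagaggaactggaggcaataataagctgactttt
Alpha, WT anti-4-1BB, experiment 1, 16 cells: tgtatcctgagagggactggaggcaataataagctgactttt
Alpha, KO IgG, experiment 1, 10 cells: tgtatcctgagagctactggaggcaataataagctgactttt

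Expansion was measured as the share of TRBV20 cells whose clonotype had at least 2 cells. In experiment 2 this expanded share was 51.1% of TRBV20 cells against 35.3% of other cells in KO anti-4-1BB, 35.4% against 28.5% in KO IgG, 38.6% against 46.9% in WT anti-4-1BB and 33.5% against 26.0% in WT IgG. In experiment 1 it was 18.1% of TRBV20 cells against 16.5% of other cells in KO anti-4-1BB, 26.7% against 22.5% in KO IgG, 23.2% against 22.1% in WT anti-4-1BB and 11.9% against 23.3% in WT IgG. TRBV20 was the higher in 6 of 8 libraries, by 2.16 ± 8.76 percentage points on average (SD, n = 8; two-sided exact permutation test over all sign patterns, p = 0.492). Without KO anti-4-1BB of experiment 2, which holds the 71-cell clonotype, the mean difference was 0.210 points (p = 0.922 in the exact permutation test).

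**Figure D5:**
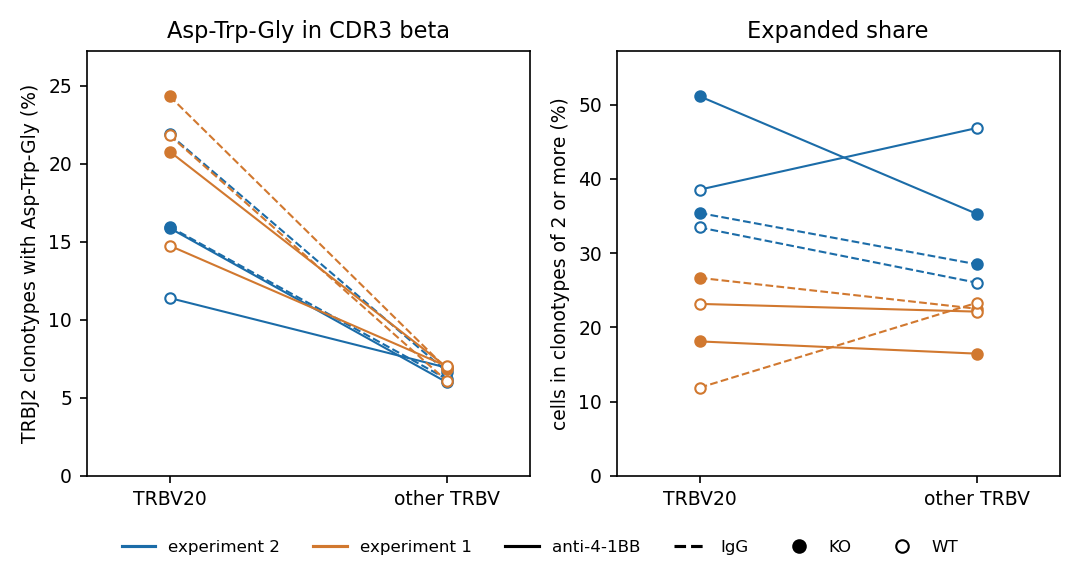
Left, share (%) of TRBJ2 clonotypes with Asp-Trp-Gly, and right, share (%) of cells whose clonotype has at least 2 cells, for TRBV20 and for other TRBV in each library, joined by a line (blue experiment 2, orange experiment 1; solid anti-4-1BB, dashed IgG; filled KO, open WT). On the left all 8 TRBV20 values (11.4% to 24.3%) lie above all others, and on the right the lines cross.

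With anti-4-1BB the expanded share of TRBV20 cells differed from that with IgG by 15.7 points in KO and 5.10 in WT of experiment 2, and by -8.56 in KO and 11.3 in WT of experiment 1. The mean was 5.89 ± 10.6 points (SD, 4 pairs of libraries, higher in 3 of 4; two-sided exact permutation test, p = 0.375). The same difference for other cells averaged 5.10 ± 11.8 points (SD, 4 pairs), close to that of TRBV20 cells. KO differed from WT by 6.07 ± 9.29 points (SD, 4 pairs, higher in 3 of 4; exact permutation test, p = 0.375). With 16 arrangements, 2 of them the most extreme, these 2 tests cannot reach 0.05. Without WT IgG or WT anti-4-1BB of experiment 1 the treatment mean was 4.09 points, and without either KO library of experiment 1 it was 10.7 points. Without either KO library of experiment 2 it was 2.61 points. Depth differed within pairs, with 8871 paired cells in WT anti-4-1BB and 4057 in WT IgG of experiment 1. With every library thinned to 2656 cells, the expanded shares of TRBV20 cells in that pair were 12.6% and 8.96%. The mean treatment difference was then 4.81 ± 11.2 points (SD, higher in 3 of 4 pairs), and the genotype difference 8.20 ± 8.48 points (SD, 4 pairs).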

How the data were processed

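Each of the 8 deposited TCR files lists assembled contigs with segment and CDR3 labels and a UMI count and a read count per contig, per the file headers. The submitters' processing notes name Seurat, bcl2fastq 2.20.0, Cell Ranger 7.1.0 and GRCm38. The V(D)J reference is not given in the sources used here. All 123611 contigs were marked as productive, full-length and in cells. The rule on chains kept 38108 of 74368 cells. It leaves out 4077 cells with 2 or more TRB chains as possible doublets, and no other doublet step was run.

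Clonotypes per segment, per TRBV-TRBJ pair and per partner segment were tested with edgeR 4.0.16 (R 4.3.3; quasi-likelihood test, 10 or more clonotypes in at least 2 libraries or columns, library size the clonotypes over all segments of that type, Benjamini-Hochberg over the whole table, threshold 0.05), with DESeq2 1.42.0 as an alternative. Simulated data with 30 of 169 pairs changed by a median of 2.03 (log2) gave 30 calls and 0 false ones. The spread between libraries was assumed, not estimated from these data, and the size is above every TRBV20-TRBJ difference printed here, so power for those was not shown. Expanded shares were tested by exact permutation (Python 3.11.15, pandas 2.3.3).

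No genome was used. Segment ends in CDR3 were taken from the chains, extended while over 50% of the chains that matched so far shared the next base. TRBJ starts were limited to the annotated segment length minus framework 4. The text names, by rule, the 8 forms in most libraries (ties by clonotypes), every TRBJ, and partner segments past the threshold or, in a direction with none, the 3 of smallest p. Form 9 onward and the clonotypes with TRAV21-DV12 were chosen after their values were seen. TRBV20, its forms and the tests were chosen with earlier results of these data known.

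The replicate number is the experiment named in the labels, so it pairs libraries. Deviations of same-experiment libraries from their group means, over 153 segments, correlated from -0.13 to 0.40 between groups (median 0.16). Alternatives covered test, scaling, filter, UMI minimum, clonotype definition, thinning, sharing limit and leaving out libraries.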

Additional observations from a re-analysis of the deposited data

Results flagged for a closer look

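TRBV20 took 3.74% of paired cells in WT anti-4-1BB of experiment 2, far from the other 3 libraries of that experiment, which held 5.97% to 6.30%. By clonotypes, WT IgG of experiment 2 stood apart from the other WT libraries, with 5.36% TRBV20 against 4.20% to 4.35%. These are 2 of 30 sets of 4 libraries examined, and chance marks about 1 set in 20. No cause was tested.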

How the results depend on the processing

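TRBV20 use stayed short of the threshold in all 5 contrasts under every alternative run (DESeq2, TMM factors, no filter, cells, 3 or more UMIs per chain, any shared alpha joining cells, leaving out libraries; the joining and the fits within experiments were chosen after seeing the data), and with the experiment as replicate block its differences were -0.15 (treatment), 0.09 (genotype) and 0.08 (treatment difference in KO minus WT), which changed no call. Without 1 library the values ran from -0.25 to -0.04 (treatment), -0.017 to 0.20 (genotype), -0.10 to 0.32 (treatment difference in KO minus WT), 0.16 to 0.31 (experiment) and -0.40 to -0.15 (treatment difference by experiment). Genotype turned sign without KO IgG of experiment 2 (-0.017). The KO minus WT difference turned sign without KO IgG of experiment 1 (-0.10), KO anti-4-1BB of experiment 2 (-0.01) or WT IgG of experiment 2 (-0.07). TRBV20-TRBJ pairs called stayed at 0. Partner segments called were 1, against 0 with DESeq2, 0 with 3 or more UMIs per chain, 3 by cells (TRBJ1-6, TRAV11 and TRAV7-1) and 0 to 2 without 1 library, at 9 to 17 under an unadjusted 0.05. Shared forms were 11, or 6.32% of clonotypes, against 56 (14.2%) with a limit of 2 libraries, 4 (1.74%) by nucleotides, and 8 to 11 (5.50% to 6.74%) without 1 library. Cell pairs of a shared form that differed in alpha were 50.6% with the limit of 2 libraries, 83.5% by alpha amino acids and 86.9% to 94.3% without 1 library. Without form 15, pairs of private forms that differed in alpha were 31.9%, against 22.6%, and without form 8, pairs of shared forms with the same TRAJ were 8.22%, against 13.0%, both chosen after seeing the data. The expanded share differences kept their sign, between 0.210 and 4.10 points (TRBV20 minus other), 2.61 and 10.7 (treatment) and 3.16 and 9.77 (genotype) without 1 library. Leaving out cells whose barcode is in more than 1 library gave 11 shared forms, 6.50% of clonotypes and 89.0% of pairs. The cause of the other changes was not tested. Shared forms rest on 1 to 6 clonotypes per library, so depth limits which libraries can show a form.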
